A study of Rattus norvegicus with 6 samples.

Results

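Small nuclear and small nucleolar RNAs were followed in RNA-seq of rat sciatic nerve, through all gene models whose symbol is U and a number or SNORA or SNORD and a number. The rule took 281 of the 21028 models in the table by name alone: 149 U6, 42 U1, 22 U2, 22 U4 and 1 U12 model, 42 box H/ACA snoRNA (SNORA) models and 3 box C/D snoRNA (SNORD) models. The samples were 6 libraries of female wild-type rats with a sciatic nerve defect bridged by a conduit. The PLLARS_US group had a PLLARS conduit and ultrasound stimulation (3 libraries), and the PCL group had a PCL conduit and no ultrasound (3 libraries). The series title calls the device a biodegradable piezoelectric one based on Rochelle salt. Conduit and ultrasound changed together, so their effects cannot be told apart, and neither group is an uninjured nerve. Strain, age and the time between surgery and collection are not stated in the labels. The labels assign 6 rats to the groups, so each library was taken as 1 rat.

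The U RNAs are the RNA parts of the spliceosome, the machine that removes introns from messenger RNA. U1 pairs with the start of an intron, U2 with its branch point, and U6, delivered in a complex with U4 and U5, forms part of the catalytic centre; U12 takes the place of U2 at a rare class of introns. Box C/D snoRNAs guide the methylation of ribose and box H/ACA snoRNAs guide the conversion of uridine to pseudouridine, mostly in ribosomal RNA, and most are cut out of introns of host genes, many of which encode ribosomal proteins. Mature RNAs of both kinds carry no poly(A) tail, while these libraries were made from poly(A)-enriched RNA. The genome holds many near-identical copies and inactive relatives of each U RNA. A level here is therefore what was left of these RNAs, or of longer transcripts covering the models, after that selection.

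Every value of the 281 models above 0 was a whole number of sequenced fragments within 0.03, so the depth behind each level could be read. The models were 100 to 214 bases long, near the size of about 200 bases to which the RNA was fragmented. Library totals were 16360000, 16170000 and 15640000 fragments in PLLARS_US replicates 1 to 3, and 15320000, 15900000 and 16690000 in PCL replicates 1 to 3. A single fragment on a U6 model of the most common length, 107 bases, was worth 0.571, 0.578 and 0.598 FPKM (fragments per kilobase of model and per 1000000 fragments of the library) in the PLLARS_US libraries and 0.610, 0.588 and 0.560 FPKM in the PCL libraries. Most models were thin: 66 of 281 (23.5%) had 1 fragment over all 6 libraries together, 110 (39.1%) had 2 to 5, and 28 (9.96%) had 30 or more. Only 33 models had a fragment in each of the 6 libraries. Fragment totals cover counting error only, since PCR copies are not independent molecules.

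Summed over all 281 models, the small RNAs stood lower in every PLLARS_US library than in every PCL library. The totals were 408, 474 and 408 fragments in PLLARS_US replicates 1 to 3, against 786, 801 and 777 in PCL replicates 1 to 3. This was 26.8 ± 2.27 fragments per 1000000 of the library (FPM) in PLLARS_US and 49.4 ± 2.51 in PCL (SD, n = 3 each), so the PLLARS_US level was 54.2% of the PCL level. The number of models with any fragment was also smaller, 89, 110 and 99 in PLLARS_US against 129, 144 and 131 in PCL. On the log2 scale of the summed FPKM the difference was -0.88, and it lay between -0.95 and -0.82 under the alternatives tried, among them leaving out each library and leaving out the 2 libraries richest in muscle RNA. These sums are descriptions of chosen models and carry no test. In tissue of mixed cells, fewer cells of a type and less RNA per cell cannot be told apart.

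The lower level was spread over most classes. U6, the largest class, had 119, 186 and 156 fragments in the PLLARS_US libraries against 225, 318 and 259 in the PCL libraries, 57.3% of the PCL level when scaled by library totals, as are all such percentages. Its groups did not overlap, and no single copy carried it, since the highest U6 model held 11.7% of the fragments. U1 had 39, 36 and 50 fragments in PLLARS_US against 90, 52 and 110 in PCL, 49.6% of the PCL level, again without overlap although the second PCL library stood near the PLLARS_US range. U2 had 27, 45 and 30 fragments in PLLARS_US against 58, 67 and 48 in PCL, 58.4% of the PCL level. A single U2 model made up 45.8% of that class, and the nearest libraries of the 2 groups differed by few fragments.

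U4 was the exception among the well-covered classes. It had 29, 26 and 18 fragments in PLLARS_US against 55, 21 and 28 in PCL, and the groups overlapped. The higher PCL mean came from PCL replicate 1: the log2 difference of the summed level was -0.38 with all libraries and 0.02 without that library. The U12 model had 0, 2 and 0 fragments in PLLARS_US and none in PCL, too few for a comparison; a count of 0 in a library allows up to 3 fragments.

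Both snoRNA classes stood lower in the PLLARS_US group. Box H/ACA models had 145, 141 and 134 fragments in PLLARS_US against 283, 246 and 251 in PCL. The 3 PLLARS_US libraries lay close together, at 8.72 ± 0.146 FPM, well below the 16.3 ± 1.87 of the PCL libraries (SD, n = 3 each), which is 53.4% of the PCL level. Box C/D models had 49, 38 and 20 fragments in PLLARS_US against 75, 97 and 81 in PCL, 41.8% of the PCL level. SNORD22 held 92.5% of the box C/D fragments, and without it the log2 difference of the class was 0.09, against -1.30 with it. The box C/D result is therefore the result of 1 model.

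**Figure D1:**
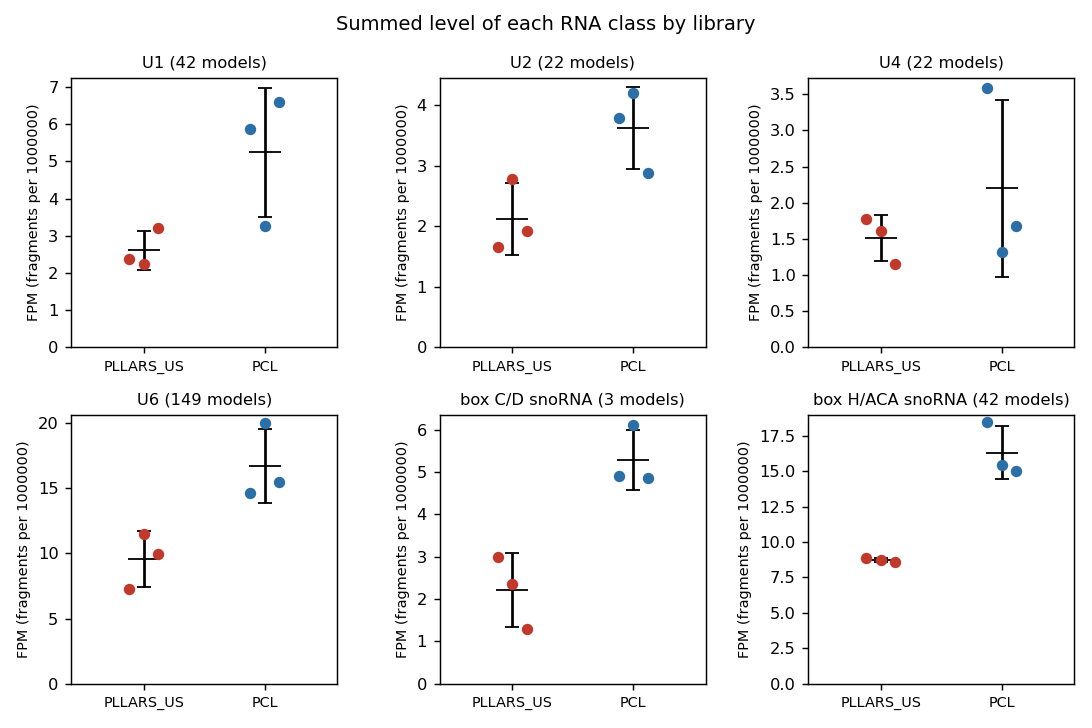
FPM (fragments per 1000000 of the library) of each library, summed over the models of 6 RNA classes; points are libraries, horizontal lines are means and bars are SD (n = 3 each), and each vertical axis starts at 0. PLLARS_US lies below PCL without overlap in 5 classes and overlaps it in U4.

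Within the box H/ACA class, 7 of the 11 families had lower levels in every PLLARS_US library than in every PCL library: SNORA62, SNORA63, SNORA65, SNORA66, SNORA70, SNORA73 and SNORA74. Beside this, 8.35% of all models and 10% of tested genes were lower without overlap, though a family can sum several models. SNORA73, a family known to act in the processing of ribosomal RNA precursors and not only in base modification, had 24, 29 and 15 fragments in PLLARS_US against 62, 41 and 49 in PCL, 44.1% of the PCL level. SNORA63 had 3, 3 and 3 fragments in PLLARS_US against 19, 7 and 12 in PCL. SNORA70, the family with the most models, had 45, 60 and 39 fragments in PLLARS_US against 74, 72 and 86 in PCL, 61.7% of the PCL level. Among the separated families with fragments in both groups, PLLARS_US ranged between 19.9% of PCL for the single SNORA65 model and 62.4% for SNORA62, and differences between families were not tested. SNORA31, SNORA71 and SNORA72 overlapped between the groups, at 63.6% to 69.6% of the PCL level. SNORA74 had 0 fragments in each PLLARS_US library against 5, 1 and 3 in PCL, so its separation rests on 1 fragment. SNORA75 had 2 fragments in 1 PCL library only. SNORD15 went the other way in its mean, with 2, 11 and 2 fragments in PLLARS_US against 5, 6 and 1 in PCL, and the groups overlapped.

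Single models were tested with limma on log2(FPKM + 1) for all 13720 genes with a mean of at least 1 FPKM over the 6 libraries. Of the 281 models, 60 passed this filter, and 16 of these reached 1 FPKM on average only in the PCL group against 1 only in the PLLARS_US group. For such models the filter itself favours a difference, so the counts over the 60 are descriptions. No gene of the 13720 passed at an adjusted p of 0.05 (0.0% called; smallest limma adjusted p 0.113), and the smallest limma adjusted p of a small RNA model was 0.225. At an unadjusted limma p under 0.05, 18 of the 60 models (30%) were lower in PLLARS_US and 0 were higher, while 5.01% of all tested genes were lower and 1.99% higher at that cutoff. The split over all genes, 687 lower and 273 higher, depends on scaling: it was 507 and 425 with median-ratio scaling and 563 and 406 with quantile normalization. Groups did not overlap for 16 of the 60 models (26.7%), all lower in PLLARS_US, beside 10% of tested genes lower and 4.33% higher without overlap. Among the 10384 other tested genes no more abundant than the highest small RNA model, those shares were 10.3% and 4.14%.

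The direction was also seen in the models left out of the test, though weakly for each. Of the 221 untested models, 134 had a lower mean in PLLARS_US and 87 a higher one, and their fragments summed to 80, 128 and 88 in PLLARS_US against 154, 165 and 157 in PCL, 61.8% of the PCL level. Over all 281 models the mean was lower in PLLARS_US for 65.1%, beside 56.7% of all models in the table. Fragments were seen only in PCL for 99 models and only in PLLARS_US for 51. Over all 281 models, 23 (8.19%) were lower without overlap, beside 8.35% of all models, and 1 was higher (0.356%, beside 3.47%). The 1 that was higher, named after its values were seen, was a U6 model (ENSRNOG00000059232) with 8 fragments in all, 0.599, 1.82 and 2.51 FPKM in PLLARS_US and 0 in each PCL library.

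Among the 27 tested U6 models, 22 were lower in PLLARS_US, with a median log2 difference of -0.70, beside -0.04 over all tested genes. The filter shapes such medians: with no filter the median was -0.22 over all 281 models and -0.23 over the 149 U6 models, and over the 43 models with a mean of at least 1 FPKM in both groups, a limit added after seeing the data, it was -0.63. For U6 alone, 18 models met that limit and 13 were lower, with a median of -0.41. The second most abundant U6 model, ENSRNOG00000058615 at 197983358 to 197983464 of chromosome 1 (minus strand) and outside any other gene model, had 6.28, 9.25 and 7.17 FPKM in PLLARS_US against 16.5, 19.4 and 17.4 FPKM in PCL. Its groups lay far apart relative to their spread (log2 difference -1.14, SE 0.17, limma adjusted p = 0.225). The U6 model ENSRNOG00000060360, at 31444735 to 31444837 of chromosome 18 (plus strand) inside Rnf14, the gene of a ubiquitin ligase, had 1.78, 0.60 and 3.10 FPKM in PLLARS_US against 8.24, 10.4 and 11.6 FPKM in PCL, a log2 difference of -2.06 (SE 0.36, limma adjusted p = 0.258). Neither passed the threshold, as no gene did.

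Other U6 models did not follow. The most abundant one, ENSRNOG00000054364, had 11.99, 17.9 and 7.17 FPKM in PLLARS_US against 18.3, 17.6 and 13.4 FPKM in PCL, and its groups overlapped (log2 difference -0.46). The U6 model inside Churc1, ENSRNOG00000057665, had 7.19, 3.64 and 8.15 FPKM in PLLARS_US against 2.56, 1.85 and 5.87 FPKM in PCL, with overlap (log2 difference 0.77, SE 0.41, limma adjusted p = 0.813). Copies of the same RNA thus showed unlike values in these libraries. The values were whole numbers of fragments, so no split of fragments among copies was seen. Whether a fragment that matches several copies was left out, placed at 1 copy or counted at each is not given in the sources used here. The level of 1 copy is therefore uncertain, and so is the class total if fragments were counted at each copy.

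For U1, 8 of 9 tested models were lower in PLLARS_US (median log2 difference -0.57, and -0.16 over all 42 with no filter). With a mean of at least 1 FPKM in both groups, a limit added after seeing the data, 5 remained. Of these, 4 were lower, with a median of -0.29. The U1 model inside Nenf, the gene of the secreted protein neudesin, ENSRNOG00000061078 at 109990742 to 109990877 of chromosome 13 (minus strand), had 0, 0.909 and 0.940 FPKM in PLLARS_US against 6.72, 5.09 and 5.29 FPKM in PCL. That is 0, 2 and 2 fragments against 14, 11 and 12, without overlap (log2 difference -2.11, SE 0.31, limma adjusted p = 0.225). This model averaged 0.617 FPKM in PLLARS_US and passed the filter only through PCL, which favours such a difference. The most abundant U1 model, ENSRNOG00000056609 inside Tpd52l2, had 0.679, 1.03 and 6.39 FPKM in PLLARS_US against 3.63, 2.096 and 7.99 FPKM in PCL. Here the third library of each group was high, and the groups overlapped. U1 model ENSRNOG00000057737, outside any other gene model, had 0, 2.15 and 1.33 FPKM in PLLARS_US against 3.63, 3.49 and 3.33 FPKM in PCL, again without overlap (log2 difference -1.21, SE 0.43, limma adjusted p = 0.650).

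The main U2 model, ENSRNOG00000061400 at 56507122 to 56507244 of chromosome 10 (minus strand), had 8.94, 9.05 and 5.20 FPKM in PLLARS_US against 19.1, 13.8 and 8.28 FPKM in PCL. The third PCL library fell inside the PLLARS_US range, so the groups overlapped (log2 difference -0.72, SE 0.34, limma adjusted p = 0.778). The main U4 model, ENSRNOG00000051990 at 150515618 to 150515759 of chromosome 4 (minus strand), had 4.73, 5.66 and 4.05 FPKM in PLLARS_US against 12.4, 3.10 and 6.33 FPKM in PCL. PCL replicate 1 stood above the rest, as in the class total, and PCL replicate 2 below every PLLARS_US library.

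SNORD22, a box C/D snoRNA, was the most abundant small RNA model with 333 fragments in all. ENSRNOG00000056397, at 224923832 to 224923957 of chromosome 1 (plus strand) and outside any other gene model of the table, had 22.8, 13.3 and 9.13 FPKM in PLLARS_US against 36.3, 45.4 and 38.0 FPKM in PCL. Every PLLARS_US library was below every PCL library, at 37.7% of the PCL level in FPM (log2 difference -1.43, SE 0.32, limma adjusted p = 0.402). SNORD15 inside Rps3 had 0.843, 3.41 and 0.882 FPKM in PLLARS_US against 1.35, 2.60 and 0 FPKM in PCL, with overlap.

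Of the 18 tested box H/ACA models, 15 were lower in PLLARS_US (median log2 difference -0.76, and -0.36 over all 42 with no filter). Groups did not overlap for 6 of these, beside 10% of tested genes lower without overlap. With a mean of at least 1 FPKM in both groups, a limit added after seeing the data, 15 models remained. Of those, 12 were lower, with a median of -0.66. SNORA66 inside Rpl5, ENSRNOG00000061409 at 2863563 to 2863694 of chromosome 14 (minus strand), had 6.48, 3.28 and 6.30 FPKM in PLLARS_US against 12.4, 10.5 and 10.9 FPKM in PCL (log2 difference -0.99, SE 0.25, limma adjusted p = 0.496). Snora65 inside Rpl12, at 12011110 to 12011239 of chromosome 3 (plus strand), had 0.470, 0.951 and 0.492 FPKM in PLLARS_US against 3.51, 2.42 and 3.69 FPKM in PCL, or 1, 2 and 1 fragments against 7, 5 and 8 (log2 difference -1.36, SE 0.24, limma adjusted p = 0.258). Both were separated between the groups. Snora65 averaged 0.638 FPKM in PLLARS_US and passed the filter only through PCL, which favours such a difference. SNORA62 inside Rpsa, at 128807094 to 128807249 of chromosome 8 (plus strand), had 10.2, 8.32 and 9.02 FPKM in PLLARS_US against 20.1, 13.3 and 12.3 FPKM in PCL, also without overlap (log2 difference -0.65, SE 0.21, limma adjusted p = 0.592). The most abundant, SNORA70 inside Rpl10 at 156438764 to 156438899 of chromosome X (minus strand), had 12.1, 19.1 and 11.8 FPKM in PLLARS_US against 21.6, 19.0 and 28.2 FPKM in PCL. Its second PLLARS_US library just exceeded the lowest PCL library. The SNORA70 model inside Ybx3 did not share the pattern, with 3.65, 3.69 and 4.29 FPKM in PLLARS_US against 2.92, 3.28 and 4.02 FPKM in PCL.

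**Figure D2:**
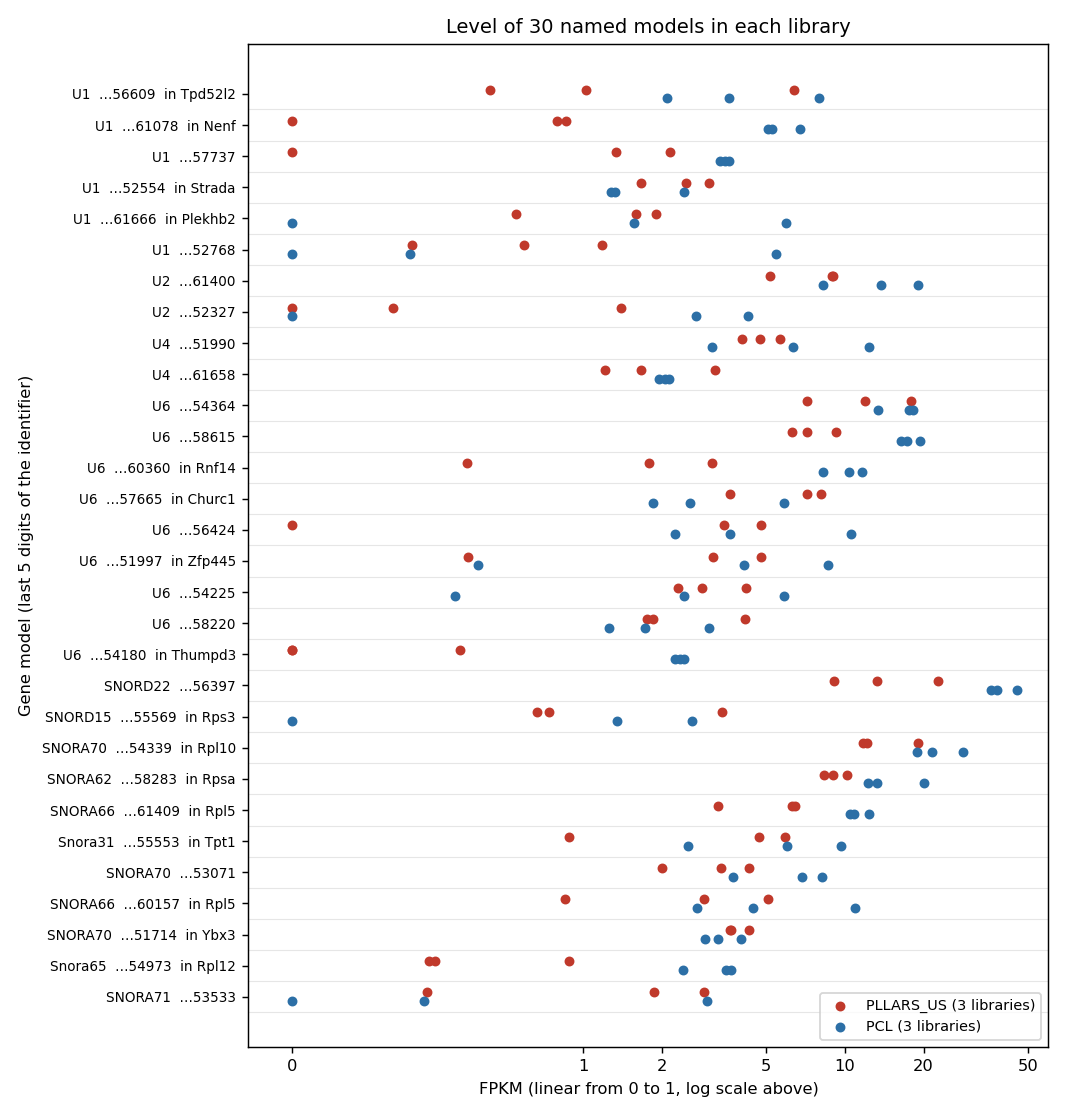
FPKM of 30 named small RNA models in each library, with PLLARS_US points above PCL points in every row; the axis is linear from 0 to 1 and logarithmic above, and the rows carry the last 5 digits of the identifier and the gene around the model on its own strand. SNORD22, U6 ENSRNOG00000058615 and U1 ENSRNOG00000061078 are separated, while U4 ENSRNOG00000051990 and the U6 model in Churc1 overlap. U1 ENSRNOG00000061078 passed the filter of 1 FPKM only through PCL.

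The snoRNAs inside genes allowed a comparison with the transcripts that carry them, since an intronic snoRNA and the messenger RNA of its host come from the same primary transcript. The main hosts were ribosomal protein genes (Rpsa, Rpl10, Rpl5, Rpl12 and Rps3), Tpt1, which encodes the translationally controlled tumour protein, and Eif4a2, the gene of a translation initiation helicase, which was named after the values of its SNORA63 models were seen. Genes of this kind often start transcription in a run of pyrimidines, the terminal oligopyrimidine tract, so the region around the start of each host is shown. Each line runs 5′ to 3′ on the host's own strand over 70 bases, from 50 bases before the annotated start to 20 after it, and capitals mark CTTTC or CTTTT.
Rpsa: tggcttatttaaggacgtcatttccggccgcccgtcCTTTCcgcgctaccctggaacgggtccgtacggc
Rpl10: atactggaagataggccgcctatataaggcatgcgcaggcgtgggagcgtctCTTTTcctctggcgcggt
Rpl5: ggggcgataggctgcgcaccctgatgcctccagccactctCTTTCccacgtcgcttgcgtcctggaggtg
Rpl12: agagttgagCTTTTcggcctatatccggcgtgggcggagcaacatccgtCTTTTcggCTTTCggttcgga
Rps3: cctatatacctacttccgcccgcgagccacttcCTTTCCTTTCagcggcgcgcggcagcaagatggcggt
Tpt1: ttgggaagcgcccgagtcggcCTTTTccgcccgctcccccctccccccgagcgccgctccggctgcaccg
Eif4a2: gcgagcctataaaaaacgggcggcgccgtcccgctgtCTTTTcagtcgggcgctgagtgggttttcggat

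The sequences are RefSeq promoters of the rat assembly GRCr8, which need not be the build of the deposited positions: Rpsa chr8:128728829-128728898, Rpl12 chr3:36661890-36661959, Tpt1 chr15:57566094-57566163 and Rpl10 chrX:157205800-157205869 on the plus strand, and Rpl5 chr14:1995206-1995275, Rps3 chr1:163195757-163195826 and Eif4a2 chr11:91275304-91275373 on the minus strand. Of the 11 genes that hold a tested snoRNA model, the 8 with a role in the ribosome or in translation were looked for, and 7 had a promoter in the table. All 7 hold CTTTC or CTTTT on the host's strand and none holds either on the other strand, while 16.5% of the 33469 promoters hold one on the gene's strand in the same window. CTTTC alone is in 4 of the 7 and in 8.99% of all promoters, and CTTTT in 4 of the 7 and in 8.70%, with Rpl12 holding both. With both strands searched, 16.9% of all promoters hold CTTTC and 16.7% hold CTTTT. The 8 hosts were picked for a role whose genes often start in such a tract, and the other hosts were not searched. The contrast with all promoters was therefore largely built into the choice. The Tpt1 match and the first Rpl12 match lie well before the annotated start. A match describes the letters of the window and is not a mapped start or a site.

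The host messenger RNAs had log2 differences above 0 while most of their snoRNAs had differences below 0. Rpsa had 906, 1364 and 1238 FPKM in PLLARS_US against 1201, 1000 and 804 FPKM in PCL, a log2 difference of 0.22, beside -0.65 for the SNORA62 inside it. SNORA62 thus stood at 0.785% of the FPKM of Rpsa in PLLARS_US and at 1.52% in PCL. Rpl12 had 709, 1173 and 932 FPKM in PLLARS_US against 931, 574 and 605 FPKM in PCL, with a log2 difference of 0.42 beside -1.36 for Snora65. Rpl10 had 1035, 1192 and 1098 FPKM in PLLARS_US against 1089, 957 and 994 FPKM in PCL (log2 difference 0.13, beside -0.66 for its SNORA70). The SNORA70 level was 1.29% of Rpl10 in PLLARS_US and 2.26% in PCL. The groups overlapped for each of these 3 hosts. Eif4a2 had 241, 152 and 182 FPKM in PLLARS_US against 146, 157 and 130 FPKM in PCL, also with overlap. Its 2 tested SNORA63 models stood at 0.350% and 0.333% of it in PLLARS_US and at 1.97% and 2.04% in PCL. Snora65 and both SNORA63 models passed the filter only through PCL, which favours a difference below the host for them.

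Over all small RNA models inside a tested gene, with no filter on the small RNA, its difference lay below that of the surrounding gene in 115 of 169 pairs, over 161 genes. The median log2 difference was -0.25 for the small RNA models and -0.03 for the genes around them. For box H/ACA models on the same strand it was 20 of 23 pairs over 19 host genes, with medians of -0.59 for the snoRNAs and 0.12 for the hosts. On the opposite strand it was 49 of 77 pairs, with medians of -0.23 and -0.06. Among tested models it was 34 of 43 pairs, with medians of -0.68 and 0.03, and for tested box H/ACA models on the same strand 12 of 13. These tested pairs include models that passed the filter only through PCL, such as Snora65 in Rpl12 and both SNORA63 models in Eif4a2, for which a difference below the host is favoured by the filter. Where the model had a mean of at least 1 FPKM in both groups it was 22 of 31 pairs, with medians of -0.36 and 0.02, and for box H/ACA models on the same strand 9 of 10, with medians of -0.64 and 0.14. The counts with no filter and with the minimum in both groups were added after seeing the data. Pairs that share a host are not independent. The library kit as named does not record strand, so reads of a model and of a gene on the other strand cannot be separated.

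**Figure D3:**
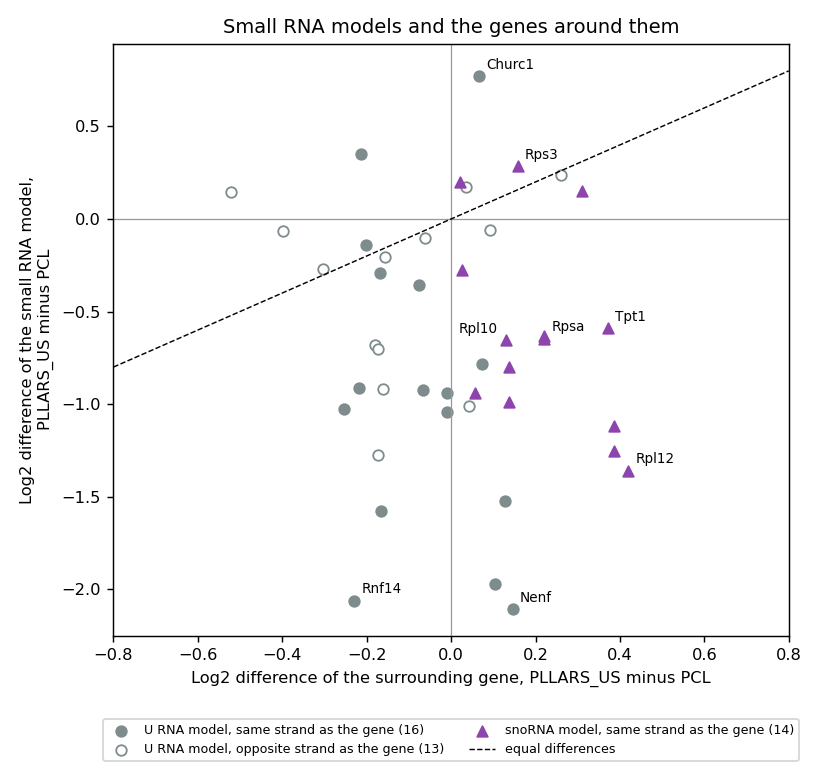
Log2 difference (PLLARS_US minus PCL) of 43 tested small RNA models against that of the gene around them; triangles are snoRNA models, filled circles U RNA models on the gene's strand and open circles U RNA models on the opposite strand. Of the 43 pairs, 34 lie below the dashed line of equal differences; the filter on the mean favours models that are higher in PCL.

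Models inside another gene model of the table and models outside any were both lower in PLLARS_US. The 97 models inside a gene on its strand had 178, 165 and 195 fragments in PLLARS_US against 333, 341 and 381 in PCL, 50.8% of the PCL level. The 104 models outside any other gene model had 184, 210 and 134 fragments in PLLARS_US against 359, 322 and 278 in PCL, 54.4% of the PCL level. Both sets were separated between the groups, so the lower level was not limited to models inside another gene model of the table. The table held no gene of the list of snoRNA hosts without a main protein product, such as Gas5. A model counted as outside may therefore still lie in a gene that the table lacks. The 79 models on the opposite strand of a gene had 46, 99 and 79 fragments in PLLARS_US against 92, 137 and 118 in PCL, 64.5% of the PCL level, and overlapped. For U6 alone, the 36 same-strand models stood at 36.9% of the PCL level and the 64 opposite-strand models at 68.6%. The 49 U6 models outside any other gene model stood at 64.9%. For U1 the 25 same-strand models stood at 44.2% and the 17 outside any other gene model at 65.6%, both with overlap. The differences between these positions were not tested.

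Other small RNAs without a poly(A) tail were also lower in PLLARS_US in sum. The 150 models were mainly of 7SK, 5S and 5.8S ribosomal RNA, the signal recognition particle RNA and RNase P RNA. They had 191, 227 and 246 fragments in PLLARS_US against 342, 346 and 319 in PCL, 65.6% of the PCL level and without overlap. The 82 models of 7SK, the RNA that holds the elongation factor P-TEFb inactive, had 162, 187 and 159 fragments in PLLARS_US against 246, 235 and 223 in PCL, 71.6% of the PCL level, also without overlap. These 7SK models held 508 of the 664 fragments in PLLARS_US and 704 of the 1007 in PCL. The 36 models of 5S ribosomal RNA overlapped, at 21, 26 and 44 fragments in PLLARS_US against 51, 70 and 41 in PCL. The models of 5.8S ribosomal RNA, signal recognition particle RNA and RNase P RNA overlapped too, with lower means in PLLARS_US. Of the 18 tested models among the 150, 15 were lower in PLLARS_US, with a median log2 difference of -0.45. The lower level in PLLARS_US was thus not confined to U RNAs and snoRNAs, though of these other families only 7SK was separated. The difference in size between the sets was not tested. Replication-dependent histone genes, another listed set, overlapped between the groups. Their mean log2(FPKM + 1) was 1.11, 0.98 and 1.00 in PLLARS_US against 0.98, 1.00 and 1.05 in PCL. Of the 7 tested histone genes, 4 were lower in PLLARS_US, with a median log2 difference of -0.14. Carry-over of RNA without a tail through the poly(A) selection was not measured in these files, and its part in the result was not tested.

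**Figure D4:**
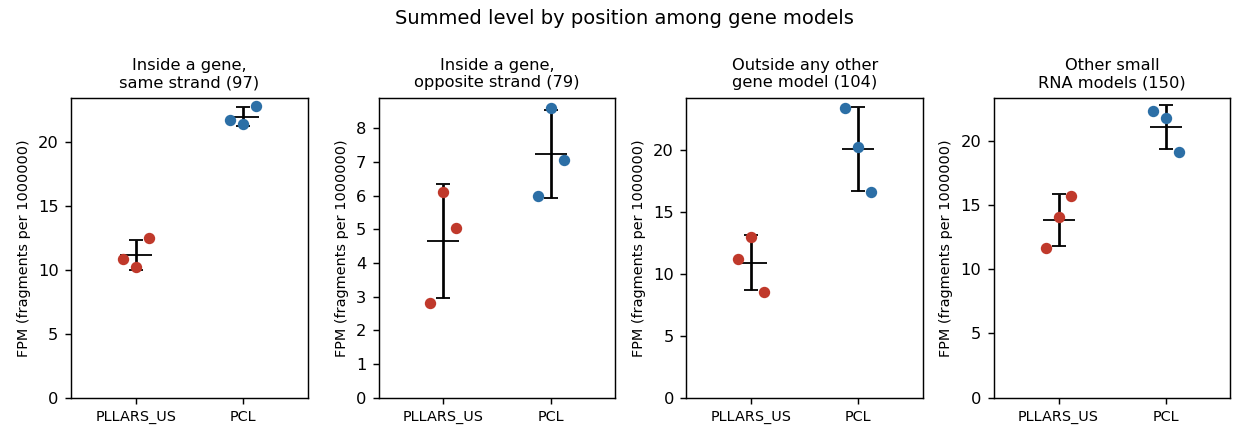
FPM (fragments per 1000000 of the library) of each library for U RNA and snoRNA models by position and for 150 other small RNA models; points are libraries, lines are means and bars are SD (n = 3 each), with vertical axes starting at 0. PLLARS_US lies below PCL without overlap in 3 of the 4 panels and overlaps it on the opposite strand.

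Among the genes of proteins that bind these RNAs, the U1 list had the lowest median. The values are messenger RNA levels, and protein was not measured. Of 8 tested U1 snRNP genes, 6 were lower in PLLARS_US, and the median log2 difference was -0.32 (-0.26 with median-ratio scaling). Of these 6, 4 were lower at an unadjusted limma p under 0.05 and without overlap, beside 5.01% and 10% of all tested genes. Snrnp70, which binds U1 directly, had 59.1, 57.9 and 60.1 FPKM in PLLARS_US against 105, 111 and 92.3 FPKM in PCL (log2 difference -0.78, SE 0.12, limma adjusted p = 0.225). Prpf39, a factor that helps U1 engage alternative splice sites, had 22.4, 21.5 and 20.4 FPKM in PLLARS_US against 36.9, 42.3 and 31.5 FPKM in PCL (log2 difference -0.75, SE 0.14, limma adjusted p = 0.302). Luc7l2 and Luc7l3, which adjust the choice of the 5′ splice site, had log2 differences of -0.42 and -0.40. Snrpc, another core U1 protein, had a log2 difference of 0.11. None passed the adjusted threshold.

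The remaining protein lists centred near 0. At an unadjusted limma p under 0.05, 1 U2 snRNP gene was lower and 1 Sm, 1 U4/U6.U5 and 1 snRNA transcription or assembly gene were higher in PLLARS_US, and no LSm gene passed. The median log2 difference was 0.06 over 7 Sm ring genes, -0.03 over 10 LSm genes, -0.04 over 12 U2 snRNP genes and -0.03 over 15 genes of the U4/U6.U5 particle. Within the U2 list, Sf3b1, which clamps the branch point, had 69.1, 71.1 and 70.4 FPKM in PLLARS_US against 97.0, 102 and 87.2 FPKM in PCL, without overlap (log2 difference -0.43, limma adjusted p = 0.518). Snrnp200, the helicase that unwinds U4 from U6, lay the other way, at 35.9, 31.7 and 30.2 FPKM in PLLARS_US against 25.7, 25.7 and 24.5 FPKM in PCL (log2 difference 0.35, limma adjusted p = 0.618). The 34 tested genes of snRNA transcription, 3′ processing and assembly had a median of -0.0039, with Ints9, an Integrator subunit, at 0.49.

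The snoRNP protein lists also had medians close to 0, with 1 box C/D assembly gene, Rpap3, lower at an unadjusted limma p under 0.05 and no box H/ACA gene. The median log2 difference was 0.0006 over 13 box C/D genes and 0.05 over 6 box H/ACA genes. Nop58, a core box C/D protein, had 20.9, 24.6 and 20.8 FPKM in PLLARS_US against 29.6, 28.7 and 21.3 FPKM in PCL, with PCL replicate 3 close to the PLLARS_US libraries. Dkc1, the pseudouridine synthase of box H/ACA particles, had 46.1, 38.7 and 33.3 FPKM in PLLARS_US against 45.0, 46.6 and 38.4 FPKM in PCL, with overlap. Neither passed the adjusted threshold.

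The tissue makeup of the libraries was uneven within both groups. Schwann cell markers were present in all 6, with a mean log2(FPKM + 1) of 6.55 to 7.75 in PLLARS_US and 6.54 to 7.40 in PCL. Skeletal muscle markers averaged 9.13, 1.04 and 7.06 in PLLARS_US against 3.03, 6.20 and 8.71 in PCL, and red blood cell genes 10.2, 3.32 and 5.87 in PLLARS_US against 10.4, 7.36 and 6.96 in PCL. The groups overlapped in both lists. Endothelial markers averaged 4.22, 4.68 and 4.60 in PLLARS_US against 4.50, 4.31 and 3.66 in PCL; all 4 tested had a higher mean in PLLARS_US, and Kdr did so without overlap (log2 difference 0.62, limma adjusted p = 0.702). Of 6 macrophage markers, Aif1 and Adgre1 were higher without overlap (log2 differences 0.50 and 0.40) and 2 had a lower mean; the list averaged 6.30, 5.94 and 6.20 in PLLARS_US against 6.02, 6.02 and 5.91 in PCL. The part of these markers in the small RNA difference was not tested. Within each group the library with the most muscle RNA had the lowest summed small RNA level and the one with the least had the highest, 24.9, 29.3 and 26.1 FPM in PLLARS_US against 51.3, 50.4 and 46.6 in PCL. Without the 2 libraries richest in muscle RNA (PLLARS_US replicate 1 and PCL replicate 3), the log2 difference of the sum was -0.87, beside -0.88 with all 6.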

How the data were processed

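Per the labels' protocols, poly(A) RNA was enriched from total RNA, fragmented and sequenced in pairs after a NEB Next Ultra preparation whose name states no strand. The authors deposited FPKM per gene model, 1 column per library. The submitters' processing notes list StringTie 1.3.3b, HISAT2 2.1.0, DESeq 1.28.0 and FastQC 0.11.5 without their roles. They also name hg38, a human build, although the identifiers are rat, so positions are given as deposited and their build is not settled. Fragments per model were computed as FPKM times length over a fixed step per library, with totals of 15320000 to 16690000 fragments.

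All genes were tested with limma 3.58.1 (R 4.3.3) on log2(FPKM + 1) for those 13720 whose mean reached 1 FPKM, two-sided, with group as the only term, a trend of variance on level and a Benjamini-Hochberg threshold of 0.05. Log2 differences are PLLARS_US minus PCL and understate the change of low genes. P-values measure the spread between these libraries. An exact permutation test of 3 against 3 cannot give a p below 0.1. The fit was tested on simulated data. Class sums and host pairs were computed in Python 3.11.15 (pandas 2.3.3) and carry no test. Models were named as the up to 6 tested ones of highest mean per class and up to 6 per direction of smallest p, and list genes as up to 4 by p and 2 by level. The small RNA models and the lists were chosen with earlier results of these data known. Alternatives covered pseudocount, filter, scaling, moderation, array weights, a replicate block, tissue makeup and leaving out each library.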

Additional observations from a re-analysis of the deposited data

How the results depend on the processing

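The summed level of all models kept its direction under its 13 alternatives (-0.95 to -0.82), and those of U2, U6 and box H/ACA kept theirs. The U1 sum was -0.52 without models that overlap another gene, and the box C/D sum 0.088 without its highest model. Leaving out 1 library, the U4 sum ranged from -0.66 to 0.021.

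The count of genes past the adjusted threshold was 0 as reported, 118 with limma array weights and 0 to 3 leaving out 1 library (3 without PLLARS_US replicate 2). Small RNA models past it numbered 4 with array weights, all lower in PLLARS_US: SNORD22 (-1.83), U6 ENSRNOG00000058615 (-1.14), U1 ENSRNOG00000061078 (-1.78) and, named after its values were seen, U6 ENSRNOG00000053333. ENSRNOG00000061078 and ENSRNOG00000053333 passed the filter of 1 FPKM only through PCL, which favours a lower value in PLLARS_US. In all other alternatives the number of small RNA models past the adjusted threshold was 0. At an unadjusted p under 0.05, models lower in PLLARS_US numbered 6 at a mean FPKM of at least 5, and models higher numbered 1 with no filter, 2 with array weights, 2 without the muscle-rich libraries and 0 to 1 leaving out 1 library. Models without overlap numbered 5 lower at a mean FPKM of at least 5, 1 higher with no filter, and 25 lower and 4 higher without the muscle-rich libraries, where fewer libraries make separation easier. Leaving out 1 library, which also makes separation easier, models without overlap numbered 19 to 23 lower and 0 to 3 higher. For the counts at an unadjusted p and without overlap, shares over all tested genes are not given under these alternatives. These counts therefore cannot be read against a background. The median log2 difference of tested models was -1.02 with a pseudocount of 0.1, -0.86 with 0.5, -0.22 with no filter and -0.79 to -0.56 leaving out 1 library.

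The replicate numbers only name the libraries: same-numbered libraries correlated at -0.50, 0.15 and -0.32 in their deviations. With a replicate block, 0 genes and 0 models passed, and 1 model was higher at an unadjusted p under 0.05.

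Some single models changed sign, none of them past the adjusted threshold. With a pseudocount of 0.1 this was U1 ENSRNOG00000052768 (0.36) and U1 ENSRNOG00000061666 (0.51), and with quantile normalization U4 ENSRNOG00000061658 (0.034). With array weights it was U4 ENSRNOG00000051990 (0.19), U6 ENSRNOG00000054225 (-0.48), SNORD15 in Rps3 (-0.19) and U1 ENSRNOG00000056609 (0.11), the last 3 also without the muscle-rich libraries (-0.23, -0.014 and 0.034). Leaving out 1 library, the ranges reached both signs for 7 models. They were -1.06 to 0.22 for U6 ENSRNOG00000051997, -0.27 to 0.80 for U6 ENSRNOG00000054225, -0.056 to 0.47 for U6 ENSRNOG00000058220, -0.83 to 0.56 for U1 ENSRNOG00000061666, -0.78 to 0.076 for U4 ENSRNOG00000051990, -0.33 to 0.14 for U4 ENSRNOG00000061658 and -0.23 to 0.70 for SNORD15 in Rps3. The causes were not tested. Depth limits single models: 66 of 281 rest on 1 fragment and 110 on 2 to 5.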
